A study of Mus musculus with 12 samples.

Results

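Nephron progenitors sorted from fetal kidneys of 4 litters titled for β-hydroxybutyrate (BHB 1 to 4) were compared with those of 4 litters titled for the normal diet (normal 1 to 4), over every gene of the deposited table. These 8 libraries are part of a series of 12; the other 4 litters, titled as ketogenic and called K here, entered the fit as a further arm and are used only where a comparison needs them. Each library is the RNA of 1 litter, so p-values measure the spread between litters. Mothers were wild-type females of the outbred CD1 stock mated to males with the transgene Tg(Six2-EGFP/cre), and both parents were 8 to 10 weeks old. Treatment ran from conception to collection at E17.5, with a control diet for the normal arm. GFP-positive cells of all kidneys of a litter were pooled, without regard to sex, and 50000 to 100000 of them gave the RNA.

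The labels contradict each other on what the BHB litters received. Their titles and their column names say β-hydroxybutyrate, yet their treatment field says ketogenic diet. The K litters show the reverse, with a ketogenic title beside a treatment field that names the normal diet supplemented with the ketone body. BHB and K are therefore names of library sets, taken from the titles and columns, and neither stands for a known diet. The expression values were not used to choose between these accounts.

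Six2 is the transcription factor that keeps cap mesenchyme cells, the progenitors of all nephron epithelium, from differentiating. In the transgenic line Six2 regulatory sequences drive the fusion of green fluorescent protein and Cre, so the sort rests on the activity of that promoter, and all litters of both arms carry the transgene in the sorted cells. Progenitors that leave the cap condense, switch on Wnt4 and Lhx1 and form renal vesicles, from which podocytes, proximal tubules, loops of Henle and distal tubules arise. β-Hydroxybutyrate is the main circulating ketone body, made in liver mitochondria from fatty acids, carried into cells by monocarboxylate transporters and turned back to acetyl-CoA by Bdh1 and Oxct1. It can also inhibit class I histone deacetylases and can be attached to lysines of histones. Fatty acids themselves activate PPAR nuclear receptors, whose targets include Cpt1a, Pdk4 and Plin2.

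Total counts were 7532784 to 12276119 in BHB litters and 8292620 to 11404335 in normal litters. Of the 23 listed self-renewal markers of progenitors, 23 had a count in every BHB library and 22 in every normal library. Levels are given as CPM, the count scaled to the size of its library, with litters in the order 1 to 4. Six2, the gene behind the sort, stood at 258, 273, 449 and 319 CPM in BHB litters, against 459.6, 510.1, 379 and 432 CPM in normal litters. The sums of marker genes for other cell types are shown in the plot of marker lists, and 3 BHB litters stood apart in different ways. Since these are bulk samples, fewer cells of a type and less RNA per cell cannot be told apart.

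**Figure D1:**
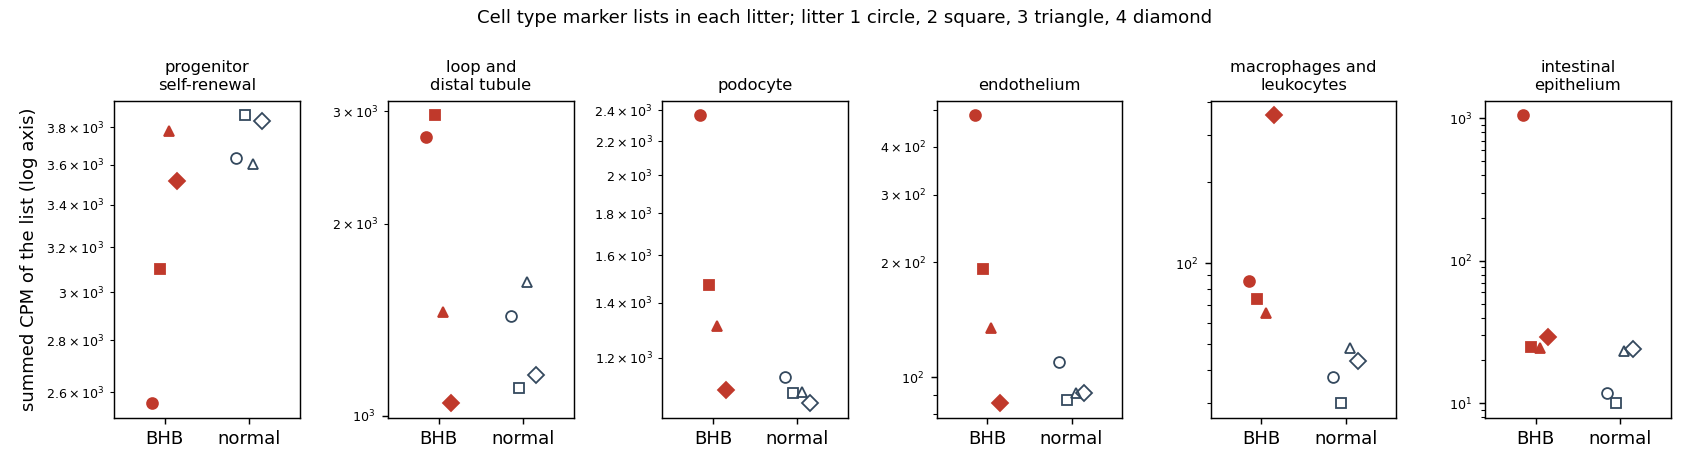
Summed CPM (log axis) of 6 marker lists in the 4 BHB litters (left, filled) and the 4 normal litters (right, open), 1 point a litter. The endothelial sum was 85.5 to 485 CPM in BHB litters and 87.2 to 110 CPM in normal litters, the leukocyte sum 65.4 to 357 CPM and 30.0 to 48.3 CPM, and the intestinal sum 1059 CPM in BHB 1 against 24.2 to 29.2 CPM in BHB 2 to 4 and 10.0 to 23.9 CPM in normal litters.

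BHB 1 carried transcripts of intestinal epithelium. A list of 17 gut genes, drawn up after these values were seen, took 12288 counts in BHB 1, or 0.107% of the library, against 230 to 298 counts in BHB 2 to 4 and 102 to 270 in normal litters. Apoa4, the apolipoprotein of intestinal chylomicrons, had 5078 counts in BHB 1, 0 to 4 in the other BHB litters and 0 to 6 in normal litters. Fabp1, a fatty acid binding protein of liver and gut, had 1107 counts in BHB 1 and 0 in every other BHB and normal litter. Apob, the structural protein of chylomicrons, had 1507 counts in BHB 1, 1 to 7 in BHB 2 to 4 and 0 to 2 in normal litters, and the intestinal homeobox gene Isx had 45 counts in BHB 1 and 0 elsewhere. The defining gut genes Tff3, Cdx2, Isx and Fabp1 were at 0 in all 4 normal litters, whereas no marker of the other lists was. The smooth muscle actin Actg2 was also found in BHB 1, at 39.5, 0.707, 0.651 and 0.127 CPM in BHB litters, against 0.377, 0.294, 0.347 and 0.239 CPM in normal litters. The expression filter removed 14 of the 17 gut genes, so they entered no test; Lct, the lactase of the gut brush border, passed it at 67.1, 1.31, 1.54 and 1.14 CPM in BHB litters, against 0.944, 1.37, 1.65 and 1.55 CPM in normal litters.

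BHB 1 and BHB 2 were also highest of the 8 litters in endothelial, podocyte, ureteric, loop and epithelial junction genes, and BHB 4 was far above the others in leukocyte genes. All 18 endothelial markers were tested, and their sum was 485, 192, 134 and 85.5 CPM in BHB 1 to 4, against 110, 87.2, 91.3 and 90.8 CPM in normal 1 to 4. Of 19 leukocyte markers 14 were tested, and the sum of all 19 was 85.8, 73.6, 65.4 and 357 CPM in BHB 1 to 4, against 37.6, 30.0, 48.3 and 43.3 CPM in normal 1 to 4. The podocyte sum was 2369, 1470, 1312 and 1096 CPM in BHB 1 to 4 and 1057 to 1137 CPM in normal litters, and the loop and distal tubule sum 2739, 2962, 1456 and 1047 CPM against 1105 to 1624 CPM. The sum of the 23 self-renewal markers was 2559, 3103, 3780 and 3517 CPM in BHB 1 to 4 and 3605 to 3867 CPM in normal litters. Thus BHB 3 was the BHB litter closest to the normal ones by self-renewal genes, and even it had more leukocyte RNA than any normal litter. What share of the differences described below goes with these cell types was not tested; most gene lists and classes are therefore also given without BHB 1 and BHB 2, an alternative added after the data were seen.

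BHB litters were compared with normal litters gene by gene to ask how fetal progenitors of the arm titled for β-hydroxybutyrate differ. Of 17697 genes tested, edgeR's quasi-likelihood test called 0 higher and 0 lower at an adjusted p of 0.05 (0% of genes in each direction; smallest adjusted p 0.309). At an unadjusted p under 0.05, 1201 genes were higher (6.79%) and 888 lower (5.02%). In 699 genes all 4 BHB litters lay above all 4 normal litters (3.95% of genes), and in 827 all 4 lay below (4.67%); such genes are called separated here. DESeq2's Wald test, run as an alternative on the same genes, called 59 genes higher and 14 lower. Of those 59 genes, 32 were highest in BHB 4 and 27 in BHB 1, and 50 were separated; all 14 lower genes were separated. With no gene past the main test, every gene below is a measurement and not a call, and adjusted p-values are given for the largest contrasts only.

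The direction of the differences went with the level of the gene. Genes were ranked by mean level over the 8 litters and divided into 10 level groups of 1769 or 1770 genes. In the lowest group 1317 genes had a positive log2 difference, BHB minus normal, and the median was 0.35; 132 genes were separated upward and 10 downward. In the highest group 360 genes had a positive difference, the median was -0.11, and 19 were separated upward and 206 downward. The median was lower in each group than in the group ranked below it, and the middle groups lay near 0 (0.06 and 0.01 in groups 5 and 6). Without BHB 1 and BHB 2 the lowest and highest groups had medians of 0.23 and -0.08. Over all genes 52.8% had a positive difference and the median was 0.02 with TMM factors and 0.01 with DESeq2 size factors. Low genes passed the filter more readily where 1 arm was high, so the upward count of the lowest group is a description only.

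**Figure D2:**
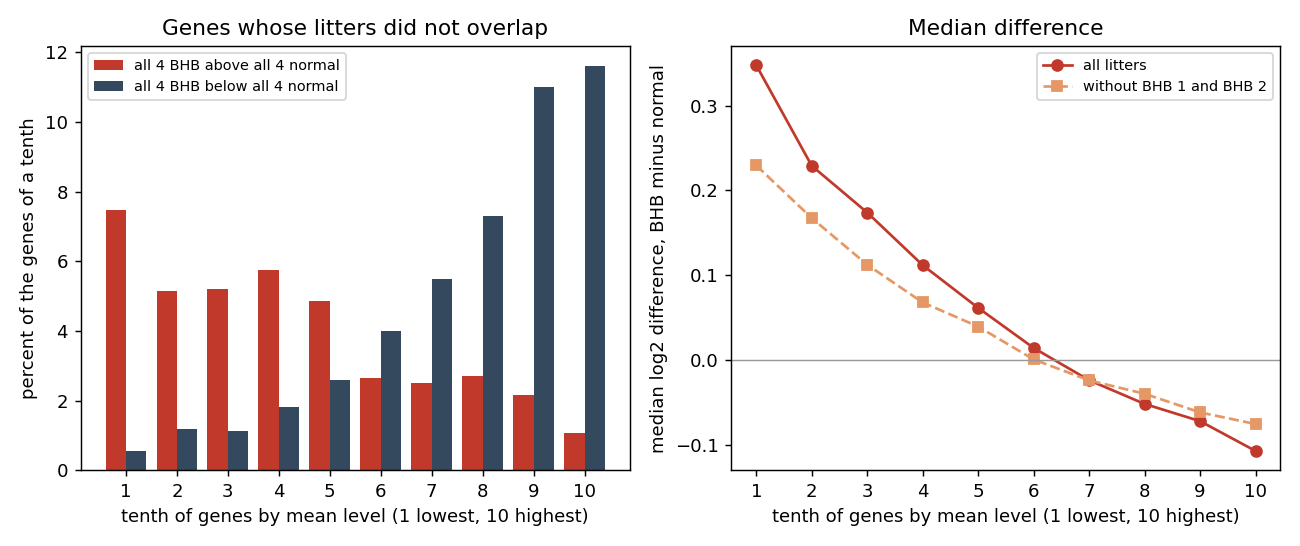
Genes in 10 groups by mean level (horizontal axis, 1 lowest, 10 highest). Left, percent of each group with all 4 BHB litters above (red) or below (dark) all 4 normal litters; right, median log2 difference, BHB minus normal, with all litters and without BHB 1 and BHB 2. The median goes down at every step, from 0.35 in the lowest group to -0.11 in the highest with all litters.

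More genes were detected in BHB litters than in normal litters. Brought to the depth of the shallowest library, 27246 to 28800 genes had a count in the BHB litters and 26240 to 26863 in the normal litters, and the groups did not overlap. Genes that are not protein-coding made up 10570 to 11541 of the detected genes in BHB litters and 9956 to 10240 in normal litters. Genes below the expression filter took 0.535%, 0.383%, 0.330% and 0.496% of the counts of BHB 1 to 4, against 0.298%, 0.270%, 0.294% and 0.295% in normal 1 to 4. The K litters had 26480 to 26808 genes at the same depth.

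The gene with the smallest p was Dnah5 (ENSMUSG00000022262), the axonemal dynein heavy chain of motile cilia. It stood at 8.88, 7.38, 9.84 and 11.4 CPM in BHB litters, against 21.04, 18.6, 19.4 and 16.5 CPM in normal litters, a log2 difference of -1.01 ± 0.16 (SE; adjusted p = 0.309). The highest BHB litter lay under the lowest normal litter, as the rule that named the gene required. Without BHB 1 and BHB 2 the difference was -0.84. Next was Syt14 (ENSMUSG00000016200), a member of the synaptotagmin family of membrane-traffic proteins, at 19.4, 19.6, 20.98 and 18.2 CPM in BHB litters, against 25.9, 29.7, 32.6 and 26.9 CPM in normal litters (log2 difference -0.56 ± 0.09; adjusted p = 0.309). Its value without BHB 1 and BHB 2 was -0.56. With no expression filter edgeR called Dnah5 (adjusted p = 0.0431) and Entpd1 (adjusted p = 0.0347).

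The other 10 genes named on the lower side had differences of -0.49 to -0.29, each with an adjusted p of 0.417. They were tight within arms, which the choice by smallest p favours where differences are small. Eef1e1, a scaffold of the multi-tRNA synthetase complex, stood at 16.3, 15.8, 17.3 and 16.5 CPM in BHB litters, against 22.2, 22.9, 19.9 and 22.1 CPM in normal litters. Golm2, a Golgi membrane protein, stood at 55.5, 53.4, 63.9 and 61.1 CPM in BHB litters, against 72.7, 74.2, 84.4 and 76.5 CPM in normal litters. Megf9, an EGF-domain membrane protein, stood at 96.96, 108, 115 and 87.6 CPM in BHB litters, against 138, 162, 144 and 127 CPM in normal litters. Grb2, the adaptor that links receptor tyrosine kinases to Ras, stood at 58.7, 55.2, 56.8 and 53.9 CPM in BHB litters, against 66.1, 72.8, 66.96 and 71.96 CPM in normal litters. Rasa2, a GTPase-activating protein for Ras, stood at 46.7, 44.97, 47.1 and 45.1 CPM in BHB litters, against 54.7, 59.7, 56.9 and 53.5 CPM in normal litters. Capza1, which caps actin filaments, and Nectin3, an adhesion molecule, had log2 differences of -0.36 ± 0.08 and -0.29 ± 0.07 (SE). Esco1, the cohesin acetyltransferase, Dcaf10, a substrate receptor of a cullin ubiquitin ligase, and Ints6, an Integrator subunit, were at -0.36 ± 0.08, -0.35 ± 0.08 and -0.36 ± 0.08. Without BHB 1 and BHB 2 the differences of these 10 were -0.50 to -0.25. That they stayed below 0 follows from the choice of separated genes.

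**Figure D3:**
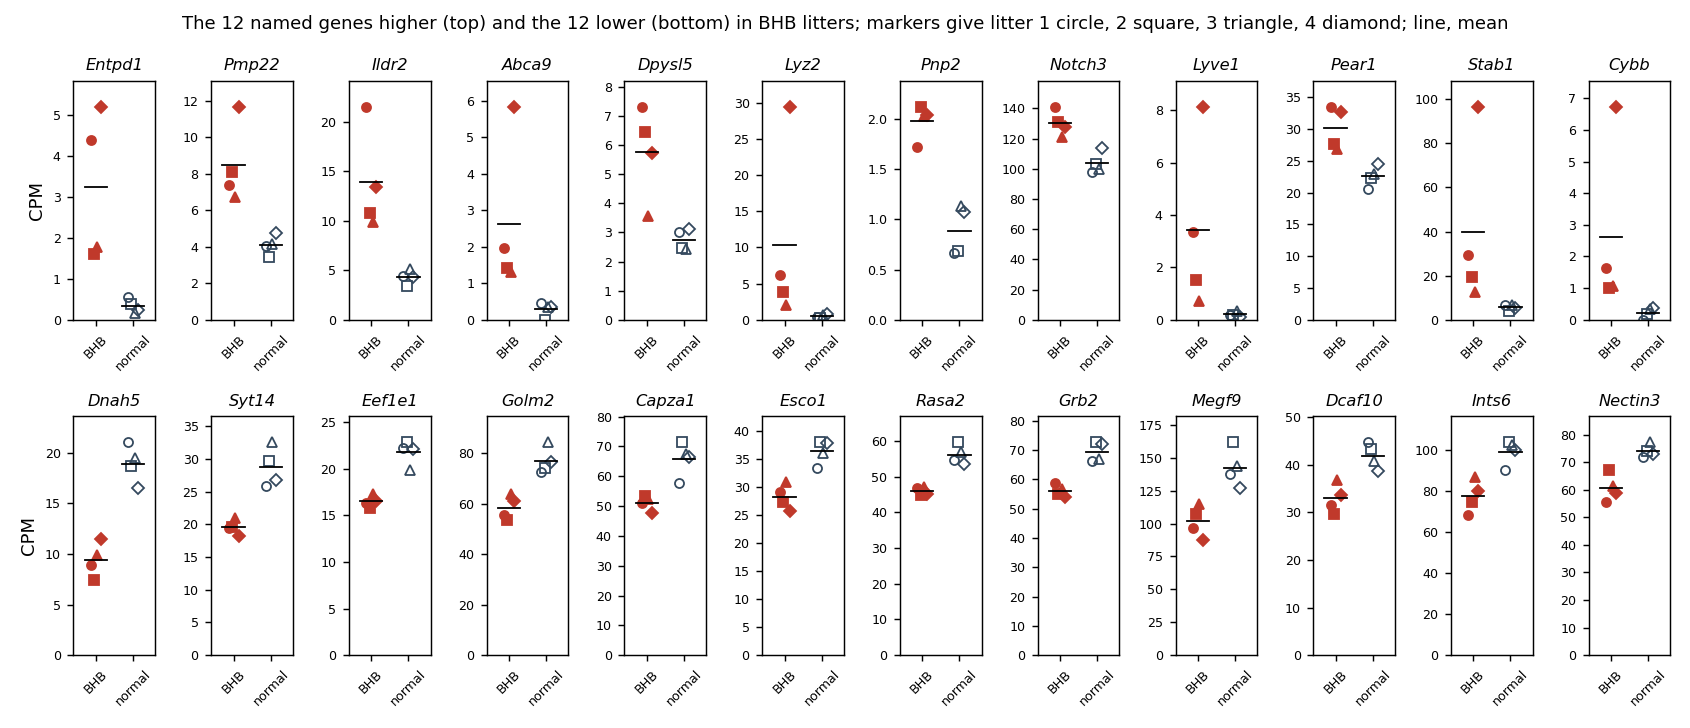
CPM in each litter for the 12 genes named on the higher side (top row) and the 12 on the lower side (bottom row), with BHB litters on the left (filled) and normal litters on the right (open) of each panel; the line is the mean of 4. The lower genes are close together within an arm, which their choice by smallest p favours. Lyz2, Lyve1, Stab1, Cybb and Abca9 are highest by far in BHB 4.

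Among the 12 genes named on the higher side, several belong to blood vessels or phagocytes. Entpd1 (ENSMUSG00000048120), the ectonucleotidase CD39 of endothelium and leukocytes, stood at 4.396, 1.62, 1.79 and 5.21 CPM in BHB litters, against 0.566, 0.392, 0.173 and 0.239 CPM in normal litters (log2 difference 3.18 ± 0.53; adjusted p = 0.309). The remaining 11 had an adjusted p of 0.417. Stab1, a scavenger receptor of macrophages and sinusoidal endothelium, stood at 29.4, 19.6, 12.7 and 96.6 CPM in BHB litters, against 6.79, 4.02, 6.85 and 5.25 CPM in normal litters. Lyz2, the lysozyme of myeloid cells, stood at 6.21, 3.84, 2.03 and 29.5 CPM in BHB litters, against 0.377, 0.294, 0.607 and 0.835 CPM in normal litters. BHB 4 was the highest litter for both. That BHB 1 to 3 also lay above every normal litter follows from the choice of separated genes. Cybb, the catalytic subunit of the phagocyte oxidase, averaged 2.61 ± 2.77 CPM in BHB litters and 0.225 ± 0.167 CPM in normal litters (SD, n = 4 each). Lyve1, a hyaluronan receptor of lymphatic endothelium and some macrophages, averaged 3.44 ± 3.32 CPM in BHB litters and 0.213 ± 0.0959 CPM in normal litters (SD, n = 4 each).

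Other genes on the higher side were more even across the BHB litters. Notch3, the Notch receptor of mural cells that is also active in developing nephrons, stood at 141, 131, 121 and 127 CPM in BHB litters, against 97.7, 103, 100.2 and 114 CPM in normal litters, a log2 difference of 0.33 ± 0.07. Pear1, a receptor of platelets and endothelium, stood at 33.5, 27.7, 26.8 and 32.7 CPM in BHB litters, against 20.6, 22.3, 22.9 and 24.6 CPM in normal litters (0.42 ± 0.10). Pmp22, a tetraspan membrane protein best known from myelin, stood at 7.41, 8.09, 6.75 and 11.7 CPM in BHB litters, against 4.06, 3.43, 4.16 and 4.77 CPM in normal litters (1.04 ± 0.19). Ildr2, an immunoglobulin-like membrane protein, stood at 21.6, 10.8, 9.92 and 13.5 CPM in BHB litters, against 4.43, 3.43, 5.12 and 4.296 CPM in normal litters (1.69 ± 0.35). It was one of 3 genes called higher by edgeR when BHB 1, BHB 2, K 3 and K 4 were left out (adjusted p = 0.0464). With only BHB 1 and BHB 2 left out, edgeR called 0 genes higher and 0 lower (smallest adjusted p 0.497). Dpysl5, a cytoskeletal regulator of growing neurites, and the lipid transporter Abca9 were at 1.07 ± 0.23 and 3.07 ± 0.66. Pnp2, a purine nucleoside phosphorylase with a near-identical neighbour whose reads may be shared, was at 1.15 ± 0.25.

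Progenitor genes lay mostly on the lower side and genes of early nephron differentiation on the higher side. Of 23 listed self-renewal genes 21 were tested, and 18 had a negative log2 difference. Separated downward were 5 (23.8%, against 4.67% of all genes) and upward 0. The median was -0.25 against 0.02 over all genes. The list mean was 5.61 to 6.36 log2 CPM over the 8 litters, the level of groups 8 and 9. There the medians were -0.05 and -0.07, with 7.29% and 11% separated downward. Meox1, a homeobox factor of the cap mesenchyme, stood at 12.1, 17.99, 23.2 and 21.1 CPM in BHB litters, against 26.98, 34.04, 35.1 and 35.5 CPM in normal litters (log2 difference -0.82 ± 0.24). Cited1, the marker of the least committed cap cells, stood at 11.03, 13.8, 20.6 and 15.6 CPM in BHB litters, against 22.8, 24.8, 24.5 and 23.3 CPM in normal litters (-0.64 ± 0.20). For both, BHB 1 was the lowest litter and BHB 3 the highest of its arm. Rspo1, a Wnt agonist of the cap, stood at 105, 118, 154 and 148 CPM in BHB litters, against 175, 184, 159 and 172 CPM in normal litters. Meox2 stood at 5.17, 7.58, 5.94 and 5.46 CPM in BHB litters, against 8.96, 13.7, 8.24 and 8.83 CPM in normal litters; the fifth separated gene was Hoxd11, at 102 ± 15.9 CPM in BHB litters and 121 ± 3.69 CPM in normal litters (SD, n = 4 each). Six2 itself overlapped between the arms, with a difference of -0.46 ± 0.23, as did its partner Eya1 (-0.29 ± 0.19). The list's median was -0.11 without BHB 1 and BHB 2, while Meox1, Cited1 and Meox2 were then at -0.57, -0.40 and -0.80.

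Early nephron genes numbered 22, of which 21 were tested. A positive difference was found in 16, with 3 separated upward (14.3%, against 3.95% of all genes) and 0 downward. The median was 0.25. It was 0.34, with 18 positive, without BHB 1 and BHB 2, and 0.15 without BHB 4. Jag1, the Notch ligand of the renal vesicle, stood at 107, 131, 96.1 and 118 CPM in BHB litters, against 85.8, 69.2, 84.8 and 77.9 CPM in normal litters (0.51 ± 0.18). Clec18a, a lectin-like secreted protein, stood at 34.6, 46.4, 33.9 and 50.5 CPM in BHB litters, against 21.04, 15.1, 26.3 and 23.3 CPM in normal litters (0.94 ± 0.35). Lhx1, needed to pattern the renal vesicle, stood at 18.5, 35.2, 23.8 and 39.9 CPM in BHB litters, against 21.3, 14.6, 19 and 16.9 CPM in normal litters (0.70 ± 0.25), with only BHB 1 inside the normal range. Wnt4, the signal that turns mesenchyme into epithelium, stood at 92.5, 141, 122 and 177 CPM in BHB litters, against 140.3, 116, 140 and 179 CPM in normal litters, and the groups overlapped. Lhx1 and Jag1 were both highest in BHB 2 and BHB 4.

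**Figure D4:**
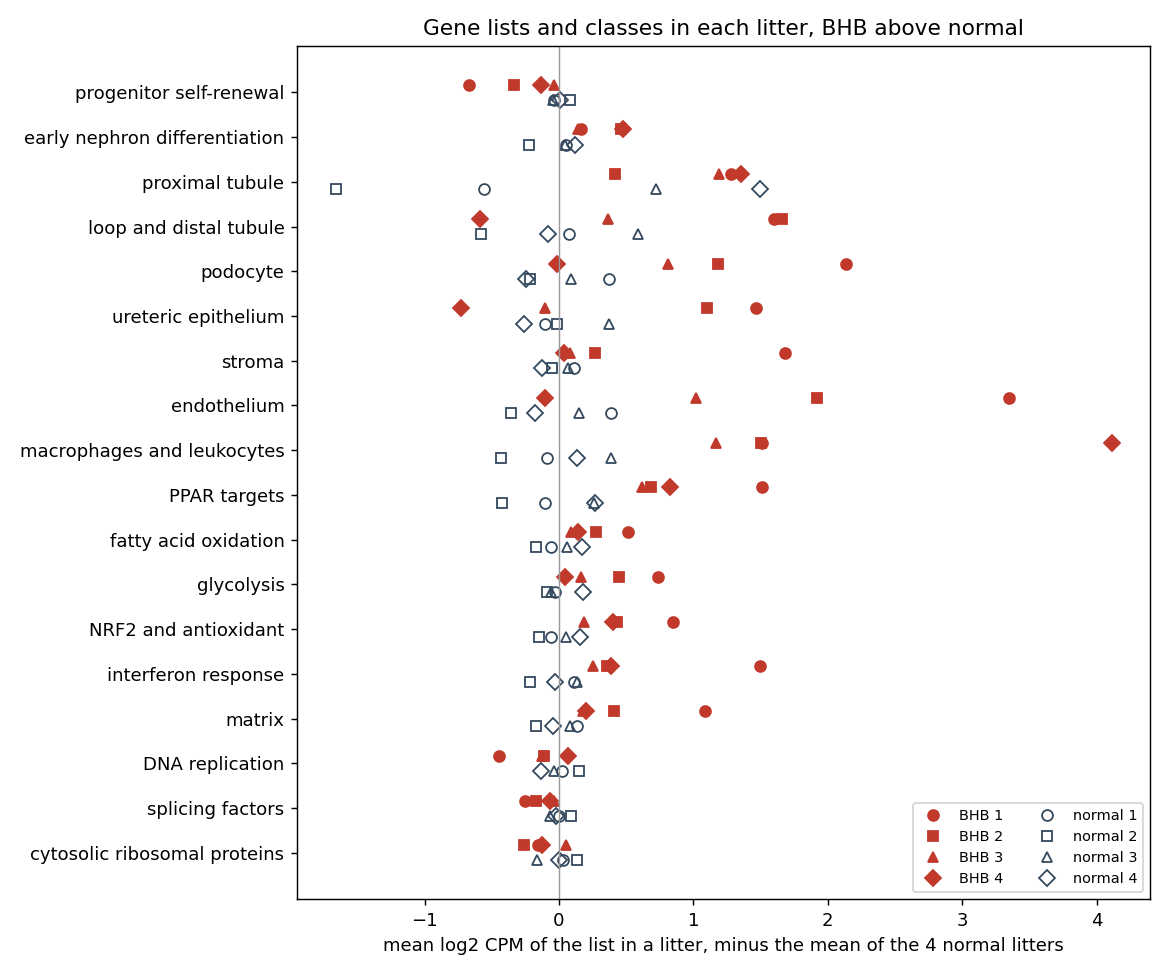
Mean log2 CPM of 18 gene lists and classes in each litter, as the difference from the mean of the 4 normal litters; BHB litters are filled and drawn above the open normal litters. Endothelial and podocyte genes run highest in BHB 1, leukocyte genes in BHB 4, and the ribosomal and splicing classes keep within about 0.3 of the normal mean.

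Markers of later nephron segments differed among the litters of an arm as well as between arms. Loop and distal tubule genes had a positive difference in 18 of 19 and a median of 1.17, which was -0.24 without BHB 1 and BHB 2. Slc12a1, which takes up sodium, potassium and chloride in the loop of Henle, stood at 1028, 1151, 279.5 and 90.9 CPM in BHB litters, against 291, 98.97, 391 and 154 CPM in normal litters; BHB 1 and BHB 2 were the highest litters and BHB 4 the lowest of all 8. The thiazide-sensitive cotransporter Slc12a3 stood at 274, 214, 85.8 and 99.8 CPM in BHB litters, against 55.9, 25.2, 124 and 32.7 CPM in normal litters. Irx3, a homeobox factor of the intermediate nephron, was separated at 10.8, 8.39, 4.72 and 6.74 CPM in BHB litters, against 2.17, 2.06, 3.903 and 3.94 CPM in normal litters (1.34 ± 0.43). Ureteric genes were positive in 14 of 16 (median 0.82, and -0.40 without BHB 1 and BHB 2), and the keratin Krt8 stood at 354, 217, 52.6 and 47.03 CPM in BHB litters, against 52.5, 60.9, 93.3 and 68.4 CPM in normal litters. Proximal tubule genes were positive in 17 of 19 (median 0.79, and 0.94 without BHB 1 and BHB 2), but here the normal litters split: the list mean was 4.79, 3.93, 4.70 and 4.87 log2 CPM in BHB 1 to 4, against 2.95, 1.85, 4.23 and 5.002 in normal 1 to 4. Hnf4a, the proximal transcription factor, stood at 73.4, 32.6, 46.8 and 66.1 CPM in BHB litters, against 12.1, 5.49, 35.2 and 40.8 CPM in normal litters. The amino acid transporter Slc6a19 stood at 6.81, 0.909, 2.12 and 1.27 CPM in BHB litters, against 0.377, 0, 0.607 and 0.477 CPM in normal litters.

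Podocyte genes were positive in 15 of 16, with a median of 1.04 (0.43 without BHB 1 and BHB 2). At an unadjusted p under 0.05 in edgeR's test 11 were higher, against 6.79% of all genes. Separated upward were 2 (12.5%, against 3.95% of all genes). Nphs1, the slit diaphragm protein nephrin, stood at 51.3, 18.7, 6.91 and 2.29 CPM in BHB litters, against 5.47, 1.47, 2.602 and 1.07 CPM in normal litters. BHB 1 was far above the rest and BHB 4 lay inside the normal range. Of the endothelial genes, 17 of 18 were positive and 3 were separated (16.7%, against 3.95% of all genes), with a median of 2.57 (0.63 without BHB 1 and BHB 2). The vascular cadherin Cdh5 stood at 57.7, 16.1, 8.62 and 1.27 CPM in BHB litters, against 5, 2.06, 3.21 and 0.955 CPM in normal litters. Cldn5, a tight junction claudin of endothelium, was separated at 15.1, 9.196, 5.21 and 9.15 CPM in BHB litters, against 2.83, 1.47, 2.08 and 2.98 CPM in normal litters. Also separated were Esam, an endothelial adhesion molecule, at 6.31 ± 5.67 CPM in BHB litters and 1.66 ± 0.395 CPM in normal litters (SD, n = 4 each), and the transcription factor Sox18, at 1.52 ± 1.23 CPM in BHB litters and 0.236 ± 0.186 CPM in normal litters (SD, n = 4 each). Gja5, a gap junction protein of arterial endothelium, stood at 14.7, 3.64, 2.93 and 0.508 CPM in BHB litters, against 0.189, 0.490, 0.434 and 1.07 CPM in normal litters.

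Leukocyte genes were the one marker list with positive differences in all members tested, 14 of 14. Of these 9 were separated (64.3%, against 3.95% of all genes and 7.46% of the lowest level group). The median was 2.85, and 1.51 without BHB 4. Low genes passed the filter more readily where 1 arm was high, so these counts and medians are a description only. C1qb, a complement subunit made by tissue macrophages, stood at 0.862, 1.42, 1.301 and 11.9 CPM in BHB litters, against 0.0943, 0.0981, 0.434 and 0.239 CPM in normal litters. S100a9, the calgranulin of neutrophils, stood at 8.19, 1.52, 1.46 and 34.7 CPM in BHB litters, against 0, 0.294, 0.260 and 0.119 CPM in normal litters. Csf1r, the macrophage colony-stimulating factor receptor, stood at 18.5, 10.9, 5.69 and 43.6 CPM in BHB litters, against 2.55, 1.37, 4.51 and 3.103 CPM in normal litters. BHB 4 was the highest litter for each of these, and no BHB litter overlapped a normal one. Stromal genes were positive in 14 of 16 (median 0.74), a value carried by BHB 1: without it the median was 0.09. Col1a2, a fibrillar collagen chain, stood at 154, 50.9, 55.5 and 60.5 CPM in BHB litters, against 51.99, 42.1, 50.05 and 47.02 CPM in normal litters. The mural receptor Pdgfrb stood at 57.8, 20.7, 16.02 and 17.7 CPM in BHB litters, against 13.9, 12.1, 14.2 and 16.4 CPM in normal litters. Matrix genes, which overlap the stromal list in 3 collagens, were positive in 25 of 27 with 5 separated (18.5%, against 3.95% of all genes). Their median was 0.46, and 0.14 without BHB 1 and BHB 2. Lama3, a laminin chain of epithelial basement membrane, stood at 14.9, 4.85, 3.497 and 5.85 CPM in BHB litters, against 1.79, 1.18, 1.04 and 0.955 CPM in normal litters.

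**Figure D5:**
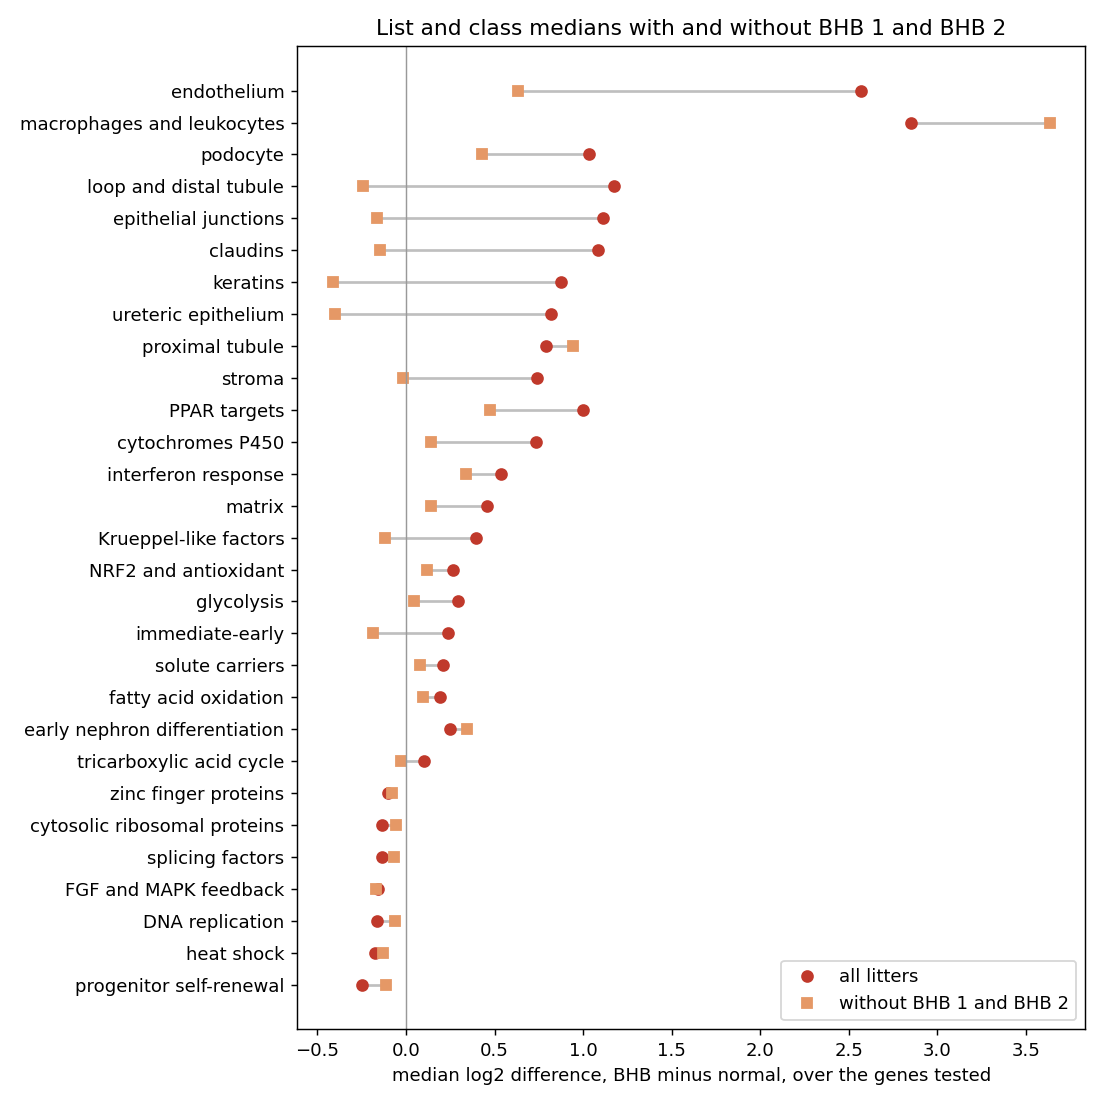
Median log2 difference, BHB minus normal, of 29 gene lists and classes over their tested genes, with all litters (red circles) and without BHB 1 and BHB 2 (orange squares). The endothelial median moves most, from 2.57 to 0.63, the loop, keratin, junction, claudin and ureteric medians move to below 0, the leukocyte median goes up to 3.63, and the zinc finger, heat shock and FGF medians hardly move.

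Ketone metabolism genes lay on both sides of 0. Of 12 listed, 11 were tested; 7 had a positive difference and the median was 0.14 (-0.02 without BHB 1 and BHB 2). Bdh1, which oxidises β-hydroxybutyrate, stood at 61.02, 47.1, 20.3 and 14.5 CPM in BHB litters, against 18.6, 11.3, 23.5 and 17.8 CPM in normal litters. Oxct1, which activates acetoacetate for use, stood at 232, 243, 187 and 182 CPM in BHB litters, against 181, 168, 216 and 198 CPM in normal litters. For both, BHB 1 and BHB 2 lay above all normal litters and BHB 3 and BHB 4 within their range. Slc16a1, the monocarboxylate transporter MCT1 that carries ketone bodies, was the only separated gene and lay lower, at 84.03, 100.5, 124 and 112 CPM in BHB litters, against 134, 134, 129 and 141 CPM in normal litters (log2 difference -0.35 ± 0.14, and -0.19 without BHB 1 and BHB 2). The transporter Slc16a7 (MCT2) stood at 55.1, 47.1, 23.7 and 18.2 CPM in BHB litters, against 24.3, 14.1, 24.03 and 18.7 CPM in normal litters.

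Fat-burning genes and PPAR targets lay almost wholly on the higher side. Of 22 tested genes of mitochondrial fatty acid oxidation, 21 had a positive difference, but the median was only 0.19 (0.10, with 17 positive, without BHB 1 and BHB 2). Cpt1a, the gate of fatty acid entry to mitochondria, stood at 148, 127, 85.9 and 84.01 CPM in BHB litters, against 78.03, 64.6, 81.4 and 66.6 CPM in normal litters (0.61 ± 0.31); it was separated, with BHB 1 and BHB 2 well above BHB 3 and BHB 4. Acadvl, the very-long-chain acyl-CoA dehydrogenase, was separated at 95.9, 72.3, 55.5 and 50.6 CPM in BHB litters, against 41.3, 38.2, 48.8 and 46.4 CPM in normal litters (0.65 ± 0.36). Slc25a20, the carnitine carrier, stood at 26.3, 20.4, 16.8 and 20.1 CPM in BHB litters, against 15.6, 14.8, 16.8 and 15.8 CPM in normal litters. All 19 tested PPAR targets of 26 listed had a positive difference, 5 were separated (26.3%, against 3.95% of all genes), and the median was 1.00. Without BHB 1 and BHB 2 it was 0.47, with 17 positive. Of the 7 not tested, Fabp1 was the gut gene described above.

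PPAR targets differed in which litters were high. Pdk4, the kinase that shuts off pyruvate dehydrogenase, stood at 140.2, 54.1, 25.1 and 16.6 CPM in BHB litters, against 21.1, 14.03, 18.8 and 15.2 CPM in normal litters; BHB 4 was inside the normal range and BHB 1 far outside. Fabp4, a fatty acid binding protein of fat cells, macrophages and endothelium, stood at 49.99, 14.3, 4.07 and 2.16 CPM in BHB litters, against 2.55, 1.67, 2.602 and 1.31 CPM in normal litters, with BHB 1 highest and BHB 4 inside the normal range. G0s2, an inhibitor of fat breakdown, was separated at 5.08, 2.12, 2.44 and 5.59 CPM in BHB litters, against 1.13, 0.981, 1.301 and 0.597 CPM in normal litters (1.88 ± 0.48; 1.94 without BHB 1 and BHB 2). Cd36, a fatty acid receptor also made by macrophages and endothelium, stood at 8.45, 1.42, 2.77 and 11.6 CPM in BHB litters, against 0.660, 0.687, 1.13 and 2.15 CPM in normal litters. Plin2, the coat protein of lipid droplets, stood at 34.3, 20.6, 16.8 and 26.7 CPM in BHB litters, against 15.5, 14.2, 15.7 and 19.7 CPM in normal litters. Mgll, which frees the last fatty acid of a triglyceride, was separated at 24.4, 13.3, 6.34 and 7.24 CPM in BHB litters, against 5.09, 3.63, 4.597 and 4.18 CPM in normal litters. Lipid droplet genes as a list were positive in 14 of 16 with 4 separated (25%, against 3.95% of all genes). Their median was 0.28, and 0.19 without BHB 1 and BHB 2. With 16 of 22 listed genes tested, the filter limit given for PPAR targets holds here too.

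Lipid synthesis gave smaller differences. Fatty acid synthesis genes had a median of -0.05 (0.00 without BHB 1 and BHB 2) with 7 of 16 positive and 0 separated. The desaturases Scd1 and Scd2, which make monounsaturated fatty acids, overlapped between the arms, with Scd1 at 18.1, 14.6, 11.2 and 11.1 CPM in BHB litters, against 12.2, 9.42, 11.97 and 12.2 CPM in normal litters. Scd2 averaged 732 ± 59.4 CPM in BHB litters and 794 ± 74.3 CPM in normal litters (SD, n = 4 each). Elovl6, the elongase of palmitate, had a difference of -0.18 ± 0.08. Cholesterol synthesis genes were positive in 19 of 24, with a median of 0.17 that was 0.21 without BHB 1 and BHB 2. Lss, the lanosterol synthase, was the 1 separated member, at 33.9, 33.4, 32.4 and 34.95 CPM in BHB litters, against 27.2, 26.9, 32.4 and 30.4 CPM in normal litters (0.20 ± 0.08).

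Genes of glucose use and respiration lay mostly on the higher side, chiefly in BHB 1 and BHB 2. Glycolysis genes were positive in 19 of 21 with a median of 0.30 that was 0.05 without those litters, and the tricarboxylic acid cycle in 25 of 28 with 0.10, or -0.03 without them. Slc2a1, the main glucose transporter of fetal tissue, stood at 218, 174, 99.3 and 98.6 CPM in BHB litters, against 99.7, 91.02, 88.1 and 102 CPM in normal litters. Slc2a3, a high-affinity glucose transporter, was separated at 5.602, 2.53, 2.68 and 3.69 CPM in BHB litters, against 2.45, 1.37, 1.82 and 2.03 CPM in normal litters. Eno2, the enolase best known from neurons, stood at 32.7, 20.3, 8.78 and 9.53 CPM in BHB litters, against 6.23, 7.16, 7.63 and 8.83 CPM in normal litters. Nuclear-encoded subunits of complexes III and IV were positive in 20 of 22, with 6 separated upward (27.3%, against 3.95% of all genes) and 0 downward (median 0.17). Complex I subunits were positive in 30 of 38 (median 0.09), among which Ndufa2 stood at 39.2, 38.1, 42.4 and 40.9 CPM in BHB litters, against 33.6, 34.6, 31.5 and 33.9 CPM in normal litters. Ndufa1 stood at 14.8, 15.1, 14.3 and 17.3 CPM in BHB litters, against 11.5, 12.2, 11.97 and 10.1 CPM in normal litters. Cox4i2, the lung isoform of a cytochrome oxidase subunit, which is regulated by oxygen, stood at 2.41, 2.22, 2.52 and 2.16 CPM in BHB litters, against 1.42, 1.86, 1.13 and 0.835 CPM in normal litters (0.82 ± 0.24), with near-equal values in all BHB litters. The medians of complexes III and IV and of complex I were 0.05 and 0.03 without BHB 1 and BHB 2.

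Signalling lists gave medians near 0 with a few separated members. Insulin and mTOR genes had 10 of 27 positive and a median of -0.07 that was -0.07 also without BHB 1 and BHB 2. Separated downward were 4 (14.8%, against 4.67% of all genes and 11% of level group 9, the level of the list). Upward it was 1 (3.7%, against 3.95%). Rps6kb1, the S6 kinase under mTORC1, stood at 65.2, 70.2, 77.3 and 68.1 CPM in BHB litters, against 82.8, 87.1, 83.7 and 85.1 CPM in normal litters (-0.27 ± 0.08). Rictor, the defining subunit of mTORC2, stood at 159, 169, 163 and 148 CPM in BHB litters, against 184, 187, 194 and 180.4 CPM in normal litters. Igf1, the separated gene on the higher side, stood at 6.81, 3.74, 2.196 and 7.24 CPM in BHB litters, against 1.32, 1.27, 1.91 and 0.955 CPM in normal litters (1.84 ± 0.52). FGF and MAPK feedback genes were negative in 15 of 19, 1 of them separated (5.26% of the list, near the 4.67% of all genes). Their median was -0.16, and -0.17 without BHB 1 and BHB 2. In the Wnt list (16 of 27 negative, median -0.07, and -0.10 without BHB 1 and BHB 2), the scaffold Axin1 was separated downward at 84.9, 84.5, 98.4 and 89.98 CPM in BHB litters, against 109.8, 117, 99.1 and 100.1 CPM in normal litters. The coreceptor Lrp5 was separated upward at 147, 136, 129.9 and 140.3 CPM in BHB litters, against 124, 116, 120 and 113 CPM in normal litters.

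Notch, BMP and hypoxia lists held members on both sides. In the Notch list (11 of 17 positive, median 0.07, and 0.10 without BHB 1 and BHB 2), Notch3 and Jag1 were higher as given above, while Rbpj, the DNA-binding partner of cleaved Notch, was separated downward at 105, 107, 117 and 114 CPM in BHB litters, against 136, 133, 134 and 132 CPM in normal litters (-0.27 ± 0.08). Dll4, the Notch ligand of arterial endothelium, stood at 25.7, 6.77, 3.42 and 1.14 CPM in BHB litters, against 2.17, 1.27, 0.954 and 0.835 CPM in normal litters, with BHB 4 the lowest of its arm. In the BMP and TGF-beta list (14 of 22 positive, median 0.02, but 9 of 22 and -0.13 without BHB 1 and BHB 2), the ligand Tgfb1 stood at 11.8, 6.97, 4.23 and 7.63 CPM in BHB litters, against 3.87, 3.04, 2.95 and 2.39 CPM in normal litters (1.31 ± 0.36). Hypoxia targets were positive in 16 of 20 (median 0.25, and 0.04 without BHB 1 and BHB 2); Epas1, the HIF subunit of endothelium, stood at 77.4, 26.6, 18.1 and 7.12 CPM in BHB litters, against 10, 5.296, 9.97 and 7.04 CPM in normal litters.

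Stress lists pointed in different directions. Heat shock and chaperonin genes were negative in 19 of 22 (median -0.18), and in 21 of 22 without BHB 1 and BHB 2 (median -0.13). With all litters 2 were separated (9.09%, against 4.67% of all genes and 11.6% of the highest level group). Hspd1, the mitochondrial chaperonin, stood at 339, 375, 371 and 343 CPM in BHB litters, against 411, 525, 418 and 425 CPM in normal litters (-0.32 ± 0.10). NRF2 and antioxidant genes were positive in 20 of 23 with 3 separated (13%, against 3.95% of all genes). Their median was 0.27, and 0.12 without BHB 1 and BHB 2. Hmox1, the haem oxygenase of macrophages and stressed cells, stood at 56.8, 17.99, 18.2 and 64.95 CPM in BHB litters, against 7.55, 7.65, 11.1 and 12.1 CPM in normal litters, highest in BHB 4 and BHB 1. The metallothionein Mt1 stood at 149, 86.7, 25.8 and 31.1 CPM in BHB litters, against 21.4, 16.3, 27.8 and 27.1 CPM in normal litters. Interferon response genes were positive in 18 of 19 tested, of 24 listed, with 4 separated (21.1%, against 3.95% of all genes). Their median was 0.53, 0.34 without BHB 1 and BHB 2, and 0.24 without BHB 1 alone. In level groups 3 to 5, the level of the list, 4.86% to 5.76% were separated upward. The filter limit given for PPAR targets holds here too. The class I antigen gene H2-D1 stood at 61.02, 20.5, 21.6 and 36.2 CPM in BHB litters, against 15.2, 15.2, 11.4 and 13.4 CPM in normal litters. The regulator Irf7 stood at 8.71, 1.21, 2.03 and 1.02 CPM in BHB litters, against 0.944, 0.392, 0.954 and 0.716 CPM in normal litters.

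Immediate-early genes, which can respond to enzymatic digestion of tissue, were positive in 19 of 24 (median 0.23), but in 8 of 24 without BHB 1 and BHB 2 (median -0.19). Dusp1, the phosphatase that switches off MAP kinases, stood at 214, 118, 88.7 and 107 CPM in BHB litters, against 81.1, 74.5, 72.5 and 66.1 CPM in normal litters. Klf2, a flow-responsive factor of endothelium, stood at 97.8, 41.7, 24.8 and 35.3 CPM in BHB litters, against 26.7, 25.01, 21.2 and 19.2 CPM in normal litters. ATF4 targets had a median of 0.30 that was -0.02 without those litters. Nupr1, a stress-responsive chromatin protein, stood at 9.74, 2.53, 1.38 and 0.890 CPM in BHB litters, against 0.566, 0.196, 0.347 and 0.358 CPM in normal litters (3.28 ± 0.80). Slc7a11, the cystine importer, stood at 2.59, 2.42, 1.14 and 9.405 CPM in BHB litters, against 0.472, 1.37, 0.954 and 0.716 CPM in normal litters. ER chaperones had a median of -0.01 with 9 of 19 positive, and p53 targets -0.08 with 8 of 20. Without BHB 1 and BHB 2 these medians were -0.03 and -0.14.

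Genes of DNA replication, chromatin and RNA processing lay mostly on the lower side, by small differences. Of 31 replication genes 29 had a negative difference, with a median of -0.16 and 2 separated (6.45%, near the 4.67% of all genes); without BHB 1 and BHB 2 the median was -0.06 with 17 negative, and without BHB 4 all 31 were negative (median -0.24). Mcm4, a subunit of the replicative helicase, was separated at 143, 169, 183 and 175 CPM in BHB litters, against 203, 224, 185 and 183 CPM in normal litters. Ccne2, the cyclin E2 of S phase entry, was separated at 13.7, 17.3, 19.4 and 18.9 CPM in BHB litters, against 21.2, 25.9, 20.8 and 20.1 CPM in normal litters. Mitosis genes were lowest in BHB 1 and BHB 3: the list mean was 5.08, 5.62, 4.94 and 5.77 log2 CPM in BHB 1 to 4, against 5.58, 5.50, 5.37 and 5.24 in normal 1 to 4, and the median was -0.05 (-0.06 without BHB 1 and BHB 2, and -0.20 without BHB 4).

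β-Hydroxybutyrate is known as an inhibitor of class I histone deacetylases, so their own transcripts were examined. The list of deacetylases and sirtuins had 11 of 18 positive and a median of 0.07 (0.06 without BHB 1 and BHB 2). Hdac1 and Hdac2, class I enzymes, were its 2 separated members and lay lower. They make up 11.1% of the list, against 4.67% of all genes separated downward. In level groups 9 and 10, where these 2 genes lie, the shares were 11% and 11.6%, so the count is near that of like genes. Hdac1 stood at 104, 127, 121 and 109 CPM in BHB litters, against 131, 138, 129 and 136 CPM in normal litters (-0.21 ± 0.08). Hdac2 stood at 181, 180.2, 219 and 205 CPM in BHB litters, against 232, 259, 220 and 242 CPM in normal litters (-0.28 ± 0.12). Acetyltransferases and acyl readers were negative in 13 of 16 (median -0.11, and -0.09 without BHB 1 and BHB 2); Dpf2, a PHD-finger subunit of BAF remodellers, was separated at 79.1, 80.1, 83.6 and 81.5 CPM in BHB litters, against 94.5, 93.7, 88.1 and 93.5 CPM in normal litters. The bromodomain protein Brd3 stood at 226, 251, 306 and 274 CPM in BHB litters, against 346, 363, 314 and 294 CPM in normal litters. DNA methylation and Polycomb genes were negative in 20 of 26 (median -0.12, and -0.11 without BHB 1 and BHB 2). Separated downward were 4 (15.4%, against 4.67% of all genes and 11% of level group 9, the level of the list). Upward it was 1 (3.85%). Rnf2, the ubiquitin ligase of Polycomb complex 1, stood at 65.1, 60.6, 65.6 and 62.3 CPM in BHB litters, against 77.3, 84.2, 74.2 and 67.2 CPM in normal litters. Its partner Bmi1 stood at 79.5, 82.6, 93.9 and 86.2 CPM in BHB litters, against 104, 113, 105 and 99.5 CPM in normal litters. Suz12 of Polycomb complex 2 stood at 94.9, 106, 99.4 and 92.8 CPM in BHB litters, against 109.5, 119, 115 and 107 CPM in normal litters.

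Over all genes, several large housekeeping classes lay mostly on the lower side. Splicing factors were negative in 64 of 69, with 16 separated downward (23.2% of the class, against 4.67% of all genes and 11.6% of the highest level group) and 0 upward, and a median of -0.14. The class mean was 7.14 to 7.48 log2 CPM over the 8 litters, which lies at the level of that group, where the median was -0.11. Snrpb2, a U2 snRNP protein, stood at 39.99, 35.6, 38.5 and 43.3 CPM in BHB litters, against 47.7, 58.3, 50.05 and 53.8 CPM in normal litters (-0.42 ± 0.13). Prpf4, a component of the tri-snRNP, stood at 33.5, 35.5, 40.8 and 37.2 CPM in BHB litters, against 45.3, 49.5, 41.9 and 44.5 CPM in normal litters (-0.30 ± 0.11). Without BHB 1 and BHB 2 the class was negative in 53 of 69 (median -0.07). Cytosolic ribosomal protein genes were negative in 77 of 84 with 1 separated (1.19% of the class). Their median was -0.13, and -0.06 without BHB 1 and BHB 2. Translation initiation factors were negative in 45 of 56 (median -0.11, and -0.06 without those litters), and proteasome subunits in 31 of 36 (median -0.11, and -0.07). Of the proteasome subunits 4 were separated downward (11.1%, against 4.67% of all genes and 7.29% of level group 8, the level of the class). Psma5, a subunit of the proteasome core, stood at 62.7, 64.5, 63.6 and 64.7 CPM in BHB litters, against 80.95, 86.2, 71.7 and 80.6 CPM in normal litters (-0.32 ± 0.08).

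Ubiquitin conjugating enzymes and Trim ligases, taken as a class, were negative in 49 of 74, with 8 separated downward (10.8%) and 2 upward and a median of -0.09 (-0.07 without BHB 1 and BHB 2). Ube2w, which attaches ubiquitin to protein N termini, stood at 24.8, 24.7, 25.8 and 24.02 CPM in BHB litters, against 28.6, 31.98, 31.3 and 31.5 CPM in normal litters. Ube2l3, a partner of many ligases, stood at 82.5, 80.5, 84.6 and 83.2 CPM in BHB litters, against 108, 110, 92.5 and 93.9 CPM in normal litters. Zinc finger proteins of the Zfp family, many of them DNA-binding repressors of the KRAB type, were negative in 270 of 367. Separated downward were 24 (6.54%, against 4.67% of all genes) and upward 6 (1.63%, against 3.95%). The median was -0.10 (-0.08 without BHB 1 and BHB 2). Zfp846 stood at 22.7, 23.8, 25.9 and 24.5 CPM in BHB litters, against 28.02, 32.2, 29.5 and 29.4 CPM in normal litters. Ciliary transport genes were negative in 22 of 29 with 4 separated downward (13.8%, against 4.67% of all genes). Their median was -0.10, and -0.07 without BHB 1 and BHB 2. Ift57, a component of the anterograde carrier, stood at 22.1, 21.6, 21.6 and 19.6 CPM in BHB litters, against 26.5, 22.5, 27.5 and 33.4 CPM in normal litters (-0.37 ± 0.11). The shares of all these classes are to be read against genes of like level. By its mean, the zinc finger class lies in level group 6, where 53.3% were positive, the median was 0.01 and 4.01% were separated downward. The ubiquitin and ciliary classes lie in level group 7, with a median of -0.02 and 5.48% separated downward. The classes of the paragraph above lie at the level of the 3 highest groups. Those groups had medians of -0.05, -0.07 and -0.11, with 7.29%, 11% and 11.6% separated downward.

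Classes of transport and surface proteins lay mostly on the higher side. Solute carriers were positive in 200 of 269 with 17 separated upward (6.32%, against 3.95% of all genes) and 9 downward (3.35%, against 4.67%; median 0.21, and 0.08 without BHB 1 and BHB 2). Cytochromes P450 were positive in 23 of 27 with 4 separated (14.8%; median 0.74, and 0.14 without those litters). Claudins were positive in 14 of 16 (median 1.08, and -0.15), keratins in 9 of 10 (0.88, and -0.41), and aquaporins in 7 of 7 (0.79, and 0.02). The claudin Cldn4 stood at 149, 77.2, 14.6 and 11.1 CPM in BHB litters, against 28.2, 28.5, 31.6 and 21.8 CPM in normal litters, so that BHB 1 and BHB 2 lay above and BHB 3 and BHB 4 below every normal litter. It was called lower when BHB 1, BHB 2, K 3 and K 4 were left out (log2 difference -1.09, adjusted p = 0.0464), and so was Ccn1, a matrix protein and YAP target (log2 difference -0.61, adjusted p = 0.0249), which stood at 453, 397, 121 and 137 CPM in BHB litters, against 203, 204, 183 and 200.1 CPM in normal litters. With only BHB 1 and BHB 2 left out, neither Cldn4 nor Ccn1 was called. Cathepsins, the lysosomal proteases, were positive in 11 of 12 with 4 separated (33.3%, against 3.95% of all genes). Their median was 0.50, and 0.36 without BHB 1 and BHB 2. ABC transporters were positive in 27 of 35 with 5 separated upward (14.3%) and 1 downward (2.86%). Their median was 0.20, and 0.27 without those litters. Low members of these classes, too, passed the filter more readily where 1 arm was high, so the counts, shares and medians are a description only.

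Pseudogenes and sensory receptor genes lay on the higher side much as low genes in general did. In the 3 lowest level groups 74.4%, 71.6% and 70.2% of genes were positive, with medians of 0.35, 0.23 and 0.17 and 7.46%, 5.14% and 5.20% separated upward. Of 1262 tested processed pseudogenes, 935 (74.1%) had a positive difference, 51 were separated upward (4.04%, against 3.95% of all genes) and 9 downward (0.713%, against 4.67%), and the median was 0.19. Olfactory and vomeronasal receptor genes were positive in 73 of 95 (76.8%), with 8 separated upward (8.42%) and 1 downward (median 0.21, and 0.19 without BHB 1 and BHB 2). Olfr1484 stood at 1.72, 2.32, 1.46 and 1.52 CPM in BHB litters, against 0.849, 0.687, 0.867 and 0.716 CPM in normal litters. Vmn1r175 stood at 1.29, 1.82, 1.38 and 3.18 CPM in BHB litters, against 0.377, 0.785, 0.867 and 0.955 CPM in normal litters. Summed over tested and untested members, olfactory and vomeronasal receptors took 372, 476, 381 and 561 CPM in BHB 1 to 4, against 365, 327, 398 and 359.5 in normal 1 to 4. These are families of near-identical copies with low counts, among which reads may be shared. Processed pseudogenes likewise resemble their parent genes, and their assignment is uncertain. Protein-coding genes, the largest biotype, were positive in 6874 of 13821 (median 0.00).

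The 7SL RNAs, the RNA core of the signal recognition particle, were highest in BHB 3 and BHB 4. Rn7s1 stood at 62.1, 107, 179 and 239.8 CPM in BHB litters, against 88.9, 73.1, 44.8 and 55.6 CPM in normal litters. Rn7s2 stood at 70.3, 120.5, 217 and 260.2 CPM in BHB litters, against 113, 98.97, 61.2 and 54.7 CPM in normal litters. For both, BHB 1 lay within the normal range and BHB 2 above it. Rn7s6 stood at 8.02, 9.399, 15.1 and 20.97 CPM in BHB litters, against 9.44, 5.88, 4.597 and 5.97 CPM in normal litters. Gm23153 stood at 5.95, 14.7, 21.7 and 29.99 CPM in BHB litters, against 10.7, 8.04, 6.25 and 7.64 CPM in normal litters. Gm22701 stood at 4.22, 7.38, 12.8 and 13.6 CPM in BHB litters, against 5.66, 4.51, 3.12 and 2.63 CPM in normal litters. Those Gm genes were the other 2 called higher when BHB 1, BHB 2, K 3 and K 4 were left out (log2 differences 1.66 and 1.72; adjusted p = 0.022 and 0.0464). Neither was called with only BHB 1 and BHB 2 left out. The Rn7s genes are near-identical copies that may share reads, so their assignment is uncertain. Malat1, a nuclear noncoding RNA, stood at 17870 ± 2324 CPM in BHB litters and 16140 ± 1358 CPM in normal litters (SD, n = 4 each).

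Imprinted and oncofetal genes lay on both sides of 0. Imprinted genes were positive in 17 of 28 with 2 separated (7.14%, against 3.95% of all genes). Their median was 0.15, and 0.01 without BHB 1 and BHB 2. Peg10, a retrotransposon-derived imprinted gene of placenta, was separated at 21.98, 11.02, 6.995 and 6.99 CPM in BHB litters, against 5.85, 5.49, 5.64 and 4.77 CPM in normal litters (1.11 ± 0.35), with BHB 3 and BHB 4 nearest to the normal litters. Igdcc3, an immunoglobulin-domain membrane protein under let-7 control, was separated downward at 13.96, 17.9, 21.8 and 21.1 CPM in BHB litters, against 27.4, 27.6, 27.6 and 28.3 CPM in normal litters (-0.57 ± 0.16). Its normal litters lay within 1 CPM of each other, and the lowest BHB litter was BHB 1. The oncofetal list as a whole had 8 of 19 positive and a median of -0.04 (10 of 19 and 0.03 without BHB 1 and BHB 2).

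Mitochondrially encoded genes had a median near that of the normal arm and below that of the K arm, with none called by edgeR in either comparison. DESeq2 called mt-Atp8 (adjusted p = 0.000889), mt-Nd2 (0.00453) and mt-Nd6 (0.00942) lower in BHB than in K litters. Of 13 genes, 7 had a positive difference from normal (median 0.12, and -0.03 without BHB 1 and BHB 2), whereas the median of BHB minus K was -0.46. mt-Nd6, a complex I subunit encoded on the other strand from most mitochondrial genes, stood at 267, 231, 182 and 222 CPM in BHB litters, against 147, 145, 162 and 218 CPM in normal litters, with K 1 to 4 at 316, 358, 415 and 378 CPM. mt-Atp8, a subunit of ATP synthase, stood at 113, 117, 89.1 and 139 CPM in BHB litters, against 103, 112, 165 and 189 CPM in normal litters, with K at 242, 242, 232 and 209 CPM. Whether strand was used in counting is unknown here, so overlapping genes and antisense partners, on both mitochondrial strands too, cannot be told apart.

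The BHB litters were also set directly against the K litters, since the labels disagree on which of them received the ketone body. Of 17697 genes edgeR called 0 (0%; smallest adjusted p 0.403), with 1456 at an unadjusted p under 0.05, and DESeq2 called 23. Separated genes numbered 408 upward (2.31%) and 311 downward (1.76%). Scd1 stood at 18.1, 14.6, 11.2 and 11.1 CPM in BHB 1 to 4, against 4.53, 3.07, 5.58 and 8.56 CPM in K 1 to 4, a log2 difference of 1.34 ± 0.27. All BHB litters lay above all K litters. The K litters fell into pairs on the marker sums: the proximal tubule list summed to 588.6, 456, 3568 and 4000 CPM in K 1 to 4, and the loop list to 1821, 1252, 4698 and 4314 CPM. Beyond the fit without them, the part of K 3 and K 4 in these differences was not tested. The log2 difference, BHB minus K, was -0.75 ± 0.31 for Cpt1a. Myrf, a transcription factor that DESeq2 called higher than in K, stood at 55.2, 52.96, 57.6 and 62.4 CPM in BHB litters, against 51.9, 46.1, 46.2 and 52.1 CPM in normal litters, with K at 42.4, 40.5, 40.5 and 45.8 CPM. Fnip1, a folliculin partner in energy sensing that DESeq2 called lower, stood at 63.8, 67.5, 49.04 and 48.9 CPM in BHB litters, against 53.5, 61.01, 53.4 and 58.1 CPM in normal litters, with K at 84.6, 85.8, 77.5 and 83.6 CPM. Without BHB 1, BHB 2, K 3 and K 4, 36 genes were called between these arms, Scd1 (adjusted p = 0.0169) and Fnip1 (0.00663) among them, on 2 litters an arm.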

How the data were processed

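RNA of sorted GFP-positive fetal kidney cells was sequenced in 12 libraries, 4 for each titled arm. HTSeq 2.01, DESeq2 1.36.0, cutadapt 2.10 and TopHat2 2.1.1 are named in the submitters' processing notes, which give here no role or order. The genome build, annotation and strand setting are not stated in the sources used, so no coordinates are given. The deposited table holds raw counts per gene made by the authors, and their deposited normalized signal, which equals the count divided by a DESeq2 size factor in 27370 genes (largest relative difference 1.5e-14) and was not tested further. Of 55414 entries, 6250 had blank counts and 49164 were used.

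Counts were fitted with edgeR 4.0.16 (R 4.3.3, limma 3.58.1): filterByExpr (minimum count 10, total 15), TMM factors, 1 mean per arm over all 12 libraries, robust quasi-likelihood test with 9 residual degrees of freedom and Benjamini-Hochberg adjustment over 17697 genes, called at an adjusted p of at most 0.05. Log2 CPM values used a prior count of 2. The steps were tested on simulated data. Alternatives were DESeq2 1.42.0, its size factors, no filter, a fit that was not robust, only both arms, a replicate block, each litter left out, and BHB 1, BHB 2, K 3 and K 4 left out; leaving out only BHB 1 and BHB 2 was added after seeing the data. Biotypes came from GENCODE M21 by gene identifier. Libraries were grouped by titles and column names.

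The arms compared, 52 lists and 52 symbol classes were chosen with earlier results of these data known. The rule for named genes was, per direction, 12 genes past the threshold by size, filled by smallest unadjusted p among separated genes with a mean of at least 1 CPM and a symbol other than a Gm number or Rik clone; up to 4 members of each list by p; and genes fixed by name. Some genes that the rule names are not reported here. Lct, Hoxd11, Mcm4, Ccne2, Cldn4, Ccn1, Gm23153, Gm22701, Myrf and Fnip1 were named outside that rule, after their values were seen, as were the gut genes.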

Additional observations from a re-analysis of the deposited data

Results flagged for a closer look

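A litter was marked when its gap to the nearest of the other 3 of its arm exceeded Dixon's 95% critical share of the arm's range on the log2 CPM scale, which chance gives in about 1 of 20 groups. Of 388 values examined, 16 were marked, 8 in BHB and 8 in normal litters.

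BHB 1 stood apart for Lct (gap 0.933 of the range; 6.07 log2 CPM against 0.42 to 0.80 in the other BHB litters). It was also apart for Col1a2 (0.844), Hoxd11 (0.874, lowest), and the list means of stroma (0.86), interferon response (0.891) and imprinted genes (0.898). BHB 4 stood apart as highest for leukocyte genes (0.884; 4.32 log2 CPM against 1.38 to 1.72) and as lowest for ER chaperones (0.839). Among normal litters, normal 2 stood apart for Abca9 (0.831), Scd1 (0.934), Meox2 (0.836) and Hspd1 (0.863). Normal 1 was lowest for Meox1 (0.851) and Ube2v2 (0.875), normal 3 for Dpf2 (0.835), and normal 4 was highest for hypoxia targets (0.915). The part of these litters in the differences between arms was not tested beyond the values without them.

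Outside the tested genes, those below the expression filter took 0.436% ± 0.0958 of the counts in BHB litters and 0.289% ± 0.0127 in normal litters (SD, n = 4 each). Gut epithelium genes took 0.107% of the counts of BHB 1, against 0.000973% to 0.00241% in normal litters.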

How the results depend on the processing

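Counts of called genes stayed at 0 in both directions with DESeq2 size factors in edgeR, with a fit that was not robust, with only both arms and with any 1 litter left out; DESeq2's Wald test called 59 higher and 14 lower (23 against K), no filter gave 1 and 1, and leaving out BHB 1, BHB 2, K 3 and K 4 gave 3 and 2 (36 against K), on 2 litters in 2 of the arms. Leaving out only BHB 1 and BHB 2 kept both counts at 0 in edgeR (smallest adjusted p 0.497), so the calls 3 and 2 came only with K 3 and K 4 also left out. With a replicate block the counts were 0 (smallest adjusted p 0.49). Litters of the same number did not deviate together in expression (correlations of -0.01, -0.008, -0.258 and 0.103). These values cannot show whether litters of 1 number were handled together. Separated genes numbered 882 to 1548 upward and 995 to 1994 downward with 1 litter of either arm left out, the highest (8.57% and 11%) without BHB 3. Without BHB 1 and BHB 2 they numbered 1855 (10%) and 1714 (9.25%). Fewer litters separate more easily by construction, so none of these shares can be read against those over all litters as a stronger difference. Without BHB 1 and BHB 2, 29 of 104 list medians moved by more than the spread between litters of an arm. The log2 difference reversed without BHB 1, BHB 2, K 3 and K 4, and without BHB 1 and BHB 2 alone, in Wnt4 (0.054 and 0.052), Bdh1 (-0.024 and -0.03), Oxct1 (-0.049 and -0.053), Scd1 (-0.037 and -0.041), Slc12a1 (-0.328 and -0.337), Malat1 (-0.023 and -0.027), Krt19 (-0.361 and -0.363), Krt8 (-0.464 and -0.468), Calb1 (-0.423 and -0.433), Ccn1 (-0.615 and -0.617), Cldn4 (-1.09 and -1.097), Fnip1 (-0.205 and -0.209) and Lct (-0.009 and -0.019); the cause was not tested. With each litter left out, Wnt4 ranged from -0.279 to 0.027, mt-Nd2 from -0.149 to 0.023, Fnip1 from -0.068 to 0.089 and Lct from -0.033 to 4.072. Litter number, the mixture of cell types and low counts in the lowest genes limit these comparisons.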
